A study of Mus musculus with 8 samples.

Results

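The cone opsins and the cone phototransduction cascade were described in the retinas of *Lpcat1* knockout (KO) and wildtype (WT) mice. The set was defined by gene symbol: the opsin genes *Opn1sw* and *Opn1mw*, and 8 genes of the cascade, *Arr3*, *Gnat2*, *Gngt2*, *Gnb3*, *Pde6c*, *Pde6h*, *Cnga3* and *Cngb3*. All 10 genes were found on the array, with 14 probes between them, out of 14940 genes with a symbol and a tested probe. Every one of the 14 probes was well above background on all 8 arrays, and none was saturated.

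The RNA came from whole retinas of mice aged 2 weeks and was hybridised to 4 WT and 4 KO arrays, each with 1 colour (Cy3). *Lpcat1* encodes an acyltransferase that makes saturated phosphatidylcholine, and the deletion was global, so it was present in every retinal cell type. The labels give the strain as C57BL/6. Per the methods, the KO line was made in C57BL6/N and bred to C57BL6/J to remove the *rd8* mutation of *Crb1*, and no animal used was homozygous for it. The labels do not say that each sample came from a separate animal, so the p-values measure the spread between these samples, which may be technical. A level is the log2 of the processed signal minus the log2 of that array's 75th percentile, a difference is KO minus WT, and errors are SD with n = 4 unless an SE is named. A difference counts as called where the limma p, adjusted by Benjamini-Hochberg over all 33975 tested probes, was under 0.05 and the fold change exceeded 1.2, which is 0.263 on the log2 scale.

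The probe for *Lpcat1* read -0.431 to -0.3784 in WT and -0.9232 to -0.7776 in KO, a difference of -0.46 (limma adjusted p = 0.0036). Signal thus remained in KO, and whether the probe lies inside the deleted part is not known here, so it is a weak check of the labels. All 8 arrays were on 1 slide, WT in one row and KO in the other, so position on the slide and genotype cannot be told apart. The 75th percentile of the signal ranged from 638.4 to 737.8 across arrays.

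Cones are the photoreceptors of daylight vision, and most mouse cones carry S-opsin, M-opsin or a mixture of both, with S-opsin enriched ventrally and M-opsin dorsally. Light activates the opsin, which activates the cone transducin, a complex of Gnat2, Gnb3 and Gngt2. Transducin releases the cone phosphodiesterase Pde6c from its inhibitory subunit Pde6h, cyclic GMP falls, and the channel built from Cnga3 and Cngb3 closes. Cone arrestin, Arr3, ends the response by binding the opsin. Rods run the same cascade with their own paralogs.

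*Arr3* and *Opn1sw* rose in the KO retina, and the remaining members differed by less than the fold limit. The *Opn1sw* call did not hold under several alternatives given with its values. *Arr3* was 1.376-fold and 1.444-fold higher by its 2 probes, and *Opn1sw* was 1.351-fold higher by its single probe. All 14 member probes had a higher mean in KO, whereas 38.0% of all tested probes did. The median difference of the member probes was 0.17, beside -0.04 over all tested probes. In all, 3 of the 14 probes (21.4%) were called, each of them higher in KO. Over the whole array 2.92% of tested probes were called and 1.39% were called higher. For 9 of the 14 probes (64.3%) the lowest KO array lay above the highest WT array, which held for 6.05% of probes over the whole array; 17.5% did not overlap in either direction. Without the fold limit, 7 of the 14 probes had an adjusted p under 0.05, beside 5.5% of all tested probes. In whole tissue, more cones, more RNA per cone and a larger cone share of the RNA cannot be told apart. A level is relative to the signal of its own array, so less RNA from other cells would also raise it. Which of these lay behind the higher cone levels was not tested.

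**Figure D1:**
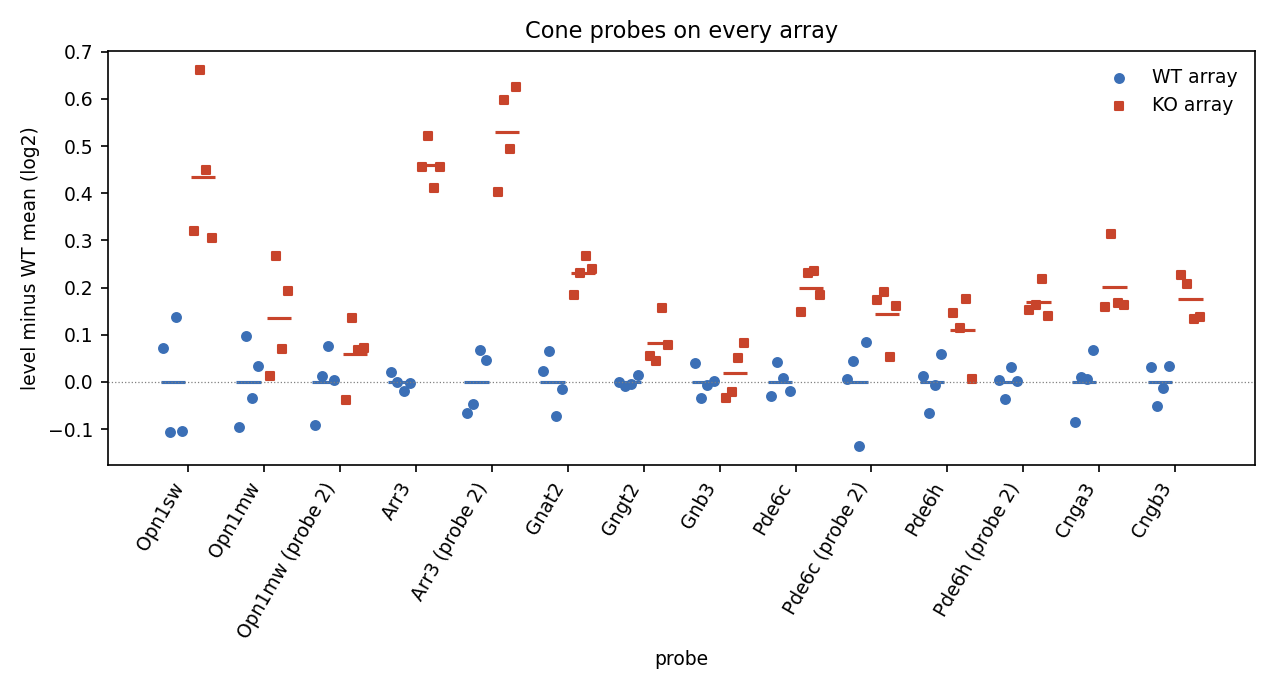
Level of each member probe on each array minus that probe's WT mean (log2), with 4 WT circles and 4 KO squares per probe and short lines at the genotype means; probe 2 is the dimmer probe of a gene. Both *Arr3* probes and *Opn1sw* separate the genotypes, and the *Gnb3* points overlap.

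S-opsin, the short-wavelength pigment, was measured by 1 probe (A_55_P1965886). Its level was -1.26, -1.44, -1.20 and -1.44 in WT replicates 1 to 4 and -1.02, -0.67, -0.89 and -1.03 in KO replicates 1 to 4. Every KO array was above every WT array, with means of -0.90 ± 0.17 in KO and -1.34 ± 0.12 in WT. The difference was 0.43 (SE 0.094, 95% interval 0.2188 to 0.65, limma adjusted p = 0.0401). This call was close to the threshold. It ended with the replicate number as a block (limma adjusted p = 0.0803), with the methods' t-test (Benjamini-Hochberg adjusted p = 0.0663) and with no filter on dim probes (limma adjusted p = 0.108). It was also lost when any WT array, or KO replicate 2, 3 or 4, was left out (adjusted p up to 0.106), and kept without KO replicate 1 (limma adjusted p = 0.046). The difference itself stayed between 0.36 and 0.48 in those runs. With normexp background correction it was smaller, 0.3333, and still called (limma adjusted p = 0.0345). This probe was the dimmest of the members, with a processed signal of 259.6 to 462.5.

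M-opsin, the pigment tuned to middle wavelengths, was measured by 2 probes and neither was called. The brighter probe (A_55_P1965876) read 4.95, 5.15, 5.02 and 5.08 in WT and 5.06, 5.32, 5.12 and 5.24 in KO. The genotypes overlapped, and the difference of 0.14 (SE 0.068) had a 95% interval of -0.02 to 0.29 (limma adjusted p = 0.274). The dimmer probe (A_51_P486748) read 2.75, 2.86, 2.92 and 2.85 in WT and 2.81, 2.98, 2.91 and 2.92 in KO. It overlapped as well, with a difference of 0.06 (SE 0.053, 95% interval -0.06 to 0.18, limma adjusted p = 0.535).

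Whether the opsins changed unequally was tested on their within-array difference, since levels of different probes cannot be set against each other. S-opsin minus M-opsin was 0.30 higher in KO with the brighter M-opsin probe, where the arrays of the genotypes overlapped (exact two-sided permutation test, p = 0.0857). With the dimmer M-opsin probe it was 0.38 higher and the genotypes did not overlap (exact permutation p = 0.0286, the smallest that 4 against 4 arrays allow). Adjusted over these 2 comparisons, the permutation p-values were 0.0857 and 0.0572. Neither was under 0.05, and with either probe the S-opsin difference was the larger.

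**Figure D2:**
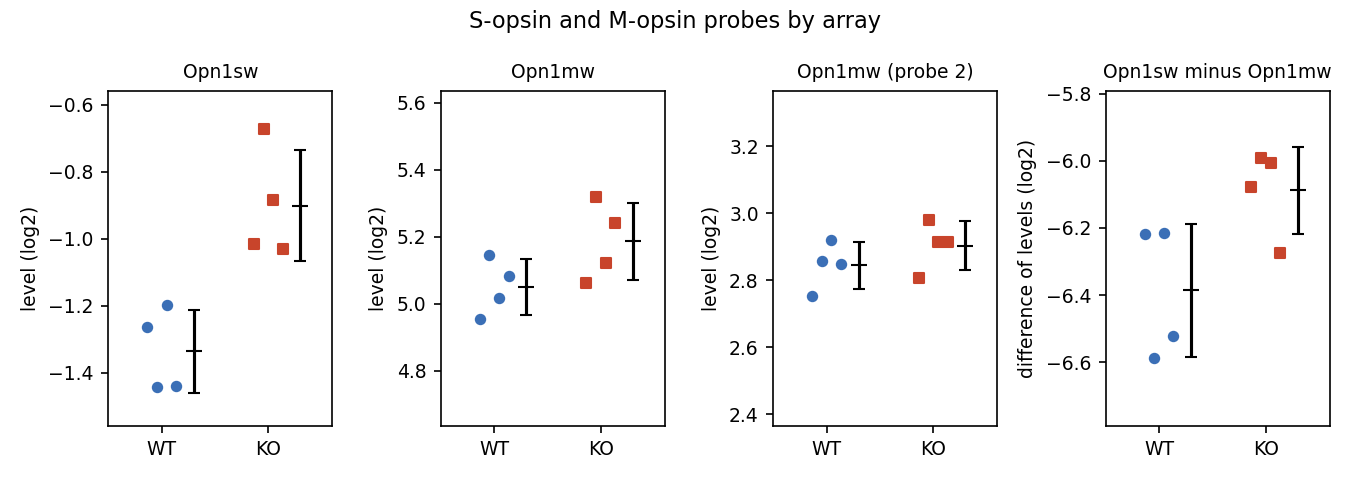
Levels of the S-opsin and M-opsin probes on each of the 8 arrays (log2 relative to the array's 75th percentile), and the within-array difference with the brighter M-opsin probe; bars are mean ± SD of 4 arrays. S-opsin separates the genotypes and both M-opsin probes overlap.

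Cone arrestin gave the largest differences among the members. Its brighter probe (A_55_P2091161) read 5.10, 5.07, 5.05 and 5.07 in WT and 5.53, 5.59, 5.48 and 5.53 in KO. The gap between the genotypes was several times the spread within either, with a difference of 0.46 (SE 0.037, 95% interval 0.3761 to 0.5458, limma adjusted p = 0.00236). The other probe (A_55_P2161824) read 3.83, 3.85, 3.96 and 3.94 in WT and 4.30, 4.49, 4.39 and 4.52 in KO. The probes were alike in size of difference, 0.53 for the second (SE 0.06, limma adjusted p = 0.007). *Arr3* was called with both probes whichever array was left out. *Opn1sw* and *Arr3* moved by similar amounts: S-opsin minus *Arr3* was -0.03 in KO relative to WT.

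The transducin subunits differed among themselves. *Gnat2*, the alpha subunit, read 4.999, 5.04, 4.90 and 4.96 in WT and 5.16, 5.21, 5.24 and 5.21 in KO. Its genotypes did not overlap, and the difference of 0.23 (SE 0.042, limma adjusted p = 0.0258) passed the p threshold and missed the fold limit. *Gngt2*, the gamma subunit, read 5.61, 5.60, 5.60 and 5.62 in WT and 5.66, 5.65, 5.77 and 5.69 in KO, a difference of 0.08 (SE 0.038, limma adjusted p = 0.229). Its arrays were also separated, but by a small margin. *Gnb3*, the beta subunit, which ON bipolar cells of the retina also express, read 5.62, 5.54, 5.57 and 5.58 in WT and 5.54, 5.56, 5.63 and 5.66 in KO. Those values overlapped, the difference was 0.02 with a 95% interval of -0.08 to 0.11 (limma adjusted p = 0.812), and its sign turned without KO replicate 4 (-0.0015).

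Of the phosphodiesterase genes, *Pde6c*, the catalytic subunit, read 4.75, 4.83, 4.79 and 4.77 in WT and 4.93, 5.02, 5.02 and 4.97 in KO by its brighter probe. The genotypes were separated by that probe, with a difference of 0.20 (SE 0.038, limma adjusted p = 0.0286) that stayed under the fold limit. Its dimmer probe overlapped, with 0.14 (SE 0.058, limma adjusted p = 0.178). *Pde6h*, the inhibitory subunit, differed by 0.11 (SE 0.049, limma adjusted p = 0.222) with the brighter probe and by 0.17 (SE 0.036, limma adjusted p = 0.0387) with the other. That second probe read 5.001, 4.96, 5.03 and 4.999 in WT and 5.15, 5.16, 5.22 and 5.14 in KO, without overlap. The brighter one overlapped, since KO replicate 4 at 5.11 fell within the WT range of 5.04 to 5.16.

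The cyclic GMP-gated channel has subunits of both kinds among the members. *Cnga3*, the principal subunit, read -0.02, 0.08, 0.07 and 0.14 in WT and 0.23, 0.38, 0.23 and 0.23 in KO. Its difference was 0.20 (SE 0.052, limma adjusted p = 0.0628), with KO replicate 2 standing above the other KO arrays. *Cngb3*, the modulatory subunit, read -0.28, -0.37, -0.33 and -0.28 in WT and -0.09, -0.11, -0.18 and -0.18 in KO. Both channel genes were separated by genotype, and the *Cngb3* difference of 0.18 (SE 0.041, limma adjusted p = 0.0462) missed the fold limit.

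**Figure D3:**
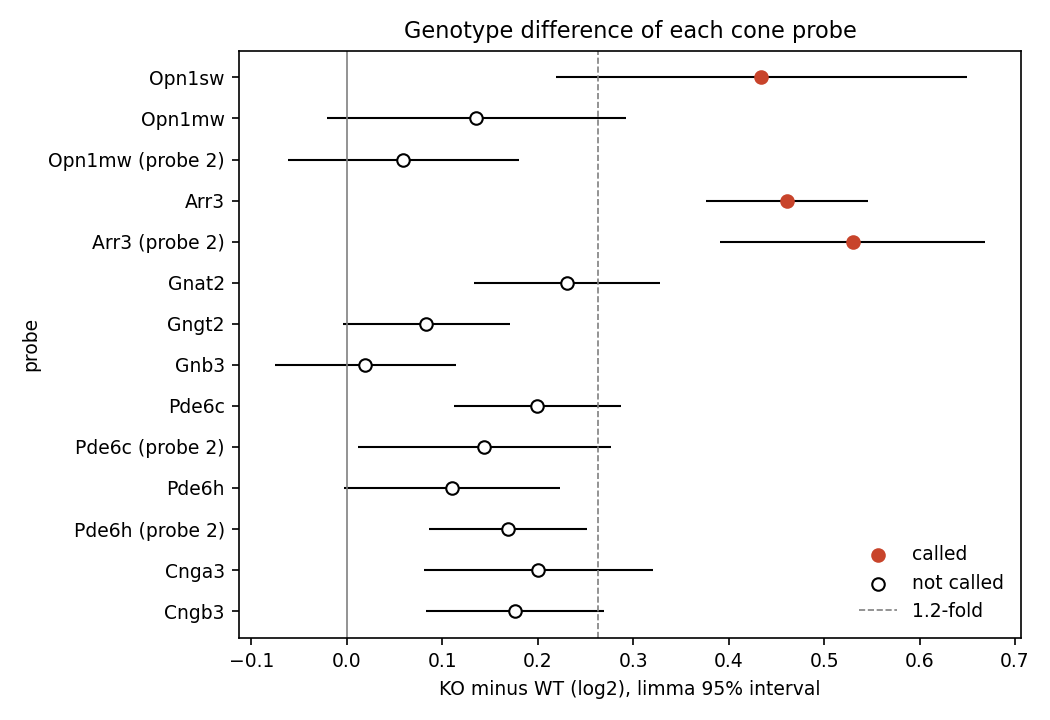
Difference of each member probe between the genotypes (KO minus WT, log2), with its 95% limma interval; filled points were called and the dashed line marks a fold of 1.2. Both *Arr3* probes and *Opn1sw* exceed the limit, and the *Gnb3* interval spans 0.

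The opsins and the cascade were not ordered by their shift. Across the 8 cascade genes, taking the brightest probe of each, the median difference was 0.19, with a range from 0.02 for *Gnb3* to 0.46 for *Arr3*, and the opsins lay at 0.43 and 0.14. The mean opsin level minus the median cascade level was 0.09 higher in KO, with overlapping arrays. This score over the members was not tested, and it turned negative under other processing (-0.0351 with another background correction and -0.0887 with the mean of a gene's probes). S-opsin minus single cascade genes ranged from -0.03 for *Arr3* to 0.41 for *Gnb3*.

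Promoter sequences are shown for both opsins, for *Arr3* and for *Gnat2*, so that the called members can be read beside M-opsin and a cascade gene under the fold limit. They come from RefSeq, build GRCm38.p6, and cover the 250 bases before the gene start, 5′ to 3′ on the gene's strand. Capitals mark 3 motifs searched on both strands: TAATCC (the core bound by the photoreceptor factors CRX and OTX2), its variant TAATCT, which was added after the promoters had been read, and AGGTCA (the half-site of nuclear receptors). The windows are *Opn1sw* chr6:29380514-29380763 (minus strand), *Opn1mw* chrX:74127216-74127465 (plus), *Arr3* chrX:100605247-100605496 (plus) and *Gnat2* chr3:108092816-108093065 (plus).
Opn1sw: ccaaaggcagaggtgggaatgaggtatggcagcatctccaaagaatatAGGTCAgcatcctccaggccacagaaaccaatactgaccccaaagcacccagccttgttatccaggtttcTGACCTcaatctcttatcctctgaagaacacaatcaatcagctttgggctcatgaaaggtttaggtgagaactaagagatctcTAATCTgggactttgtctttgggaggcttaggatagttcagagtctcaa
Opn1mw: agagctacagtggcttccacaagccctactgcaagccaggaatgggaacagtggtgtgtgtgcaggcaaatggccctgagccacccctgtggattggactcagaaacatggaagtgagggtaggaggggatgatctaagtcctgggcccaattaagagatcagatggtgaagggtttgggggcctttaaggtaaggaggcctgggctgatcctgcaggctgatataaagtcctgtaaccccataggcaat
Arr3: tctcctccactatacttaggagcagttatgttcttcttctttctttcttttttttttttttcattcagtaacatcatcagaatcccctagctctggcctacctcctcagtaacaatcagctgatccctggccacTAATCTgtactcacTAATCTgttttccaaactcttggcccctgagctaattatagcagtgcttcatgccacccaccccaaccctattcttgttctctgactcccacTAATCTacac
Gnat2: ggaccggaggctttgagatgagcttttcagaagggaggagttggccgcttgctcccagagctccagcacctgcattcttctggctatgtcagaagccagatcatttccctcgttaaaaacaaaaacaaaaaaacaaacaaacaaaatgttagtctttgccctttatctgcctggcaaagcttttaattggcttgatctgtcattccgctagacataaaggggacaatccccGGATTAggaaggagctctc

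The *Arr3* window held TAATCT 3 times and the *Opn1sw* window held it 1 time, at 49 to 44 bases before the start. TAATCT occurred in 7.31% of 32851 promoters of the same length and 3 or more times in 0.0396% of them. Since TAATCT was added after reading these promoters, and 3 is the count in *Arr3*, both shares are a description and not a test. TAATCC was present in *Gnat2*, as GGATTA on the printed strand 19 to 14 bases before the start, and in 6.25% of promoters. AGGTCA occurred 2 times in *Opn1sw*, in opposite orientations, and in 14% of promoters. None of the 3 motifs occurred in the windows of *Opn1mw*, *Pde6h* or *Cnga3*, which has 2. These are matches of letters, and binding was not measured. *Gngt2*, *Gnb3*, *Pde6c* and *Cngb3* were not searched.

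Each gene of the cone cascade was next compared with its rod counterpart within each array. In 7 of 8 pairs the cone gene minus the rod gene was higher in every KO array than in every WT array (exact permutation p = 0.0286 each, 0.0327 adjusted over the 8 pairs). The shift was 0.82 for *Arr3* against *Sag*, rod arrestin. It was 0.44 for *Cnga3* against *Cnga1* and 0.41 for *Cngb3* against *Cngb1*, the channel pairs. For the phosphodiesterase it was 0.39 for *Pde6c* against *Pde6b* and 0.35 for *Pde6h* against *Pde6g*. The alpha and beta transducin pairs shifted by less, 0.27 for *Gnat2* against *Gnat1* and 0.32 for *Gnb3* against *Gnb1*. *Gngt2* against *Gngt1*, the gamma subunits, was the exception at 0.02 with overlapping arrays. A pair's shift joins the changes of both its genes. By brightest probe, 6 of the 8 cone genes alone were higher in every KO array. Of 9 rod genes, *Pde6a* included, 7 alone were lower in every KO array. *Gnb3* itself overlapped, and its pair was separated with the fall of *Gnb1*. Over the whole array 17.5% of single probes did not overlap in either direction, and pairs of other genes were not counted.

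In the 7 separated pairs the mean of the rod gene was lower in KO. *Sag* fell by 0.36 (limma adjusted p = 0.00517) and *Gnb1*, the rod beta subunit, by 0.30 (limma adjusted p = 0.00966), and these were the called members of 9 rod cascade genes, the phosphodiesterase subunit *Pde6a* included. After quantile normalization they remained lower but missed the fold limit. The median of the 9 rod genes was -0.23, and 1 of the 9, *Gngt1* at 0.06, was higher in KO. The summed signal of the rod genes, in multiples of the array's 75th percentile, ranged from 1387 to 1446 in WT and from 1235 to 1273 in KO, and that of the 8 cone cascade genes from 223.1 to 227.5 and from 249.9 to 259.9. The rod sum was lower and the cone sum higher in every KO array.

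**Figure D4:**
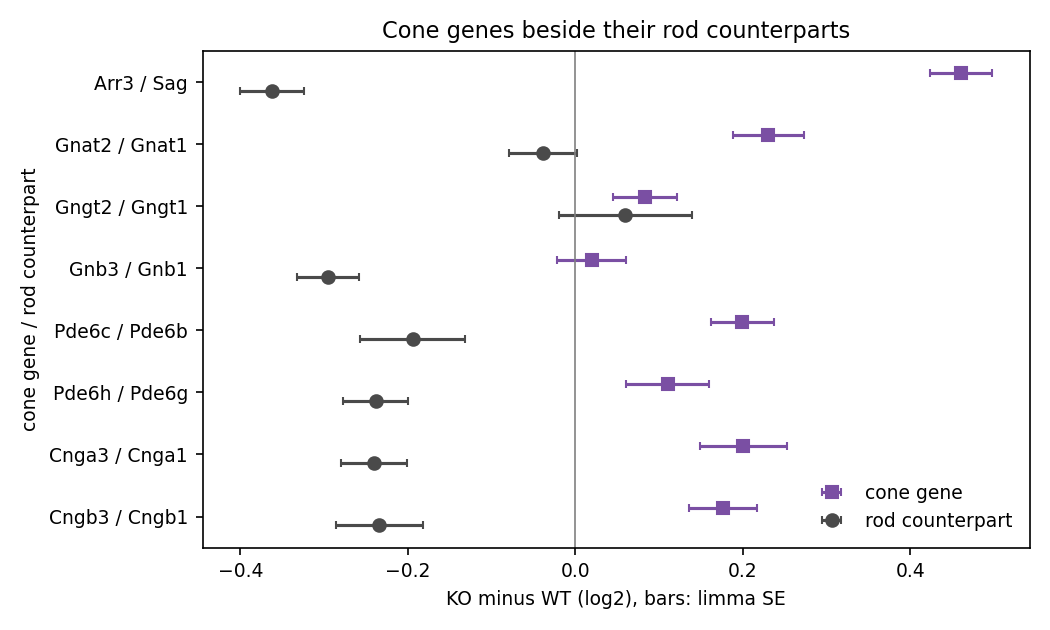
Differences (KO minus WT, log2) of each cone cascade gene and of its rod counterpart, drawn as 8 pairs with bars of 1 limma SE. The points of the cone genes lie above 0 and those of the rod genes below it, except *Gngt1*, which lies close to *Gngt2*. The bars of *Gnb3*, *Gnat1* and *Gngt1* cross 0.

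The genes around the cascade did not move as one group. Of 20 further phototransduction genes of rods or cones, 8 were higher in KO, with a median of -0.08. Among them *Slc24a2*, a sodium, calcium and potassium exchanger of cones, was called higher by 1 probe (0.41, limma adjusted p = 0.0328) but not by its brightest probe (0.11). *Gucy2e*, a guanylate cyclase that restores cyclic GMP, was called lower by 2 dimmer probes (-0.33 and -0.30) but not by its brightest (-0.14). Leaving out any single array except KO replicate 1 ended the *Slc24a2* call. The *Gucy2e* calls ended without WT replicate 1, 2 or 4 or KO replicate 2 or 3 for one probe, and without WT replicate 3 for the other. With normexp background correction the *Slc24a2* difference was 0.206 and not called. A list of 8 cone genes, which also holds *Slc24a2*, had 6 higher and a median of 0.11, and that same probe gave its only call.

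Of 18 regulators of opsin choice and photoreceptor fate, 6 were higher and the median was -0.03. *Nr2e3*, which represses cone genes in rods, fell by 0.50 (limma adjusted p = 0.0212), and *Dio3*, which inactivates thyroid hormone, rose by 0.44 (limma adjusted p = 0.0361) from a dim signal. Leaving out any array but KO replicate 1 ended the *Nr2e3* call, and any array but WT replicate 3 ended that of *Dio3*, which was 0.17 and not called with normexp. *Thrb*, the thyroid hormone receptor that drives M-opsin, differed by -0.05 (limma adjusted p = 0.523), and *Crx*, a photoreceptor master regulator, by -0.15 (limma adjusted p = 0.183). The probes of *Rxrg*, a receptor that holds S-opsin down dorsally, disagreed, at 0.11 and -0.42, and neither was called.

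Genes marking the retinal axis that S-opsin and M-opsin follow gave 1 call. None of the 8 dorsal genes was called and 6 were higher, with a median of 0.09. Of the 5 ventral genes 1 was higher, *Bmpr1b*, a BMP receptor. It was called by its dimmer probe (0.46, limma adjusted p = 0.0191) and not by its brightest (0.36, limma adjusted p = 0.0611), and leaving out WT replicate 3, KO replicate 2 or KO replicate 4 ended the call, as did normexp background correction (0.156). The median of the ventral genes was -0.03.

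Markers of other cell types moved with genotype beside the cone genes. Of 13 rod markers 2 were higher and 3 (*Sag*, *Nr2e3* and *Prph2*, an outer segment protein also found in cones) were called lower, and their summed signal was between 2505 and 2613 in WT arrays and between 2124 and 2302 in KO arrays. *Prph2* is named here after its values were seen, and its call came from its dimmer probe (-0.28, limma adjusted p = 0.0297) and not its brightest (-0.26, limma adjusted p = 0.167), and the limit of the *Nr2e3* call is given above. All 10 microglial markers were higher and 5 were called, and their sums were 10.93 to 11.74 in the WT arrays against 14.06 to 14.53 in the KO arrays. Of 9 Müller glia markers 8 were higher and 3 were called, and the sums were 342.3 to 360.4 against 408.5 to 417.2. No bipolar, amacrine, horizontal or ganglion cell marker was called, and the medians were between 0.01 and 0.12. The amacrine and horizontal cell sum did not overlap between genotypes, at 136.8 to 139.5 in WT against 147.5 to 149.8 in KO. Nor did the ganglion cell sum, at 159.8 to 161.9 against 162.6 to 170.3. The bipolar cell sum overlapped, at 249.2 to 279 against 261.5 to 277.8. Pigment epithelium and lens markers, possible carry-over from dissection, had overlapping sums of 17.45 to 22.26 against 17.59 to 22.69 and of 0.9795 to 1.12 against 1.021 to 1.225. *Best1* of the pigment epithelium and *Crybb2*, *Mip* and *Lim2* of the lens were too dim to be tested, as were all but 3 of 7 blood genes, none of which was called. The part of these cell types in the cone values was not tested.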

How the data were processed

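Total RNA of whole retina was hybridised per the labels to 1-colour Agilent SurePrint G3 arrays. The deposited scanner files were made by the authors with Feature Extraction 10.7.1.1 and hold, per spot, the processed signal intensity, already background-corrected, plus flags. The authors' series table holds log2 values that equal those used here plus a constant per array (0.1231 to 0.148). From the intensity, control spots and outlier-flagged spots were removed (3671 of 62976 spots per array were controls), spots of a probe were averaged, and each array was shifted by its 75th percentile in log2. Probes were named from the identifier column of the files through the reference tables; 26413 of 55681 probes (47.4%) received a symbol. A probe was tested (33975 in all) if it was well above background throughout 1 genotype or both. The test was limma 3.58.1 (lmFit and eBayes) in R 4.3.3, KO against WT, with Benjamini-Hochberg adjustment. Single contrasts used an exact two-sided permutation test over the 8 arrays. For a gene with 2 or more probes the brightest stood for the gene in contrasts, and every probe is reported. Alternatives covered scaling, normexp background correction (offset 50, on the median signal), the dim-probe filter, the test, the thresholds, the replicate number as a block and leaving out each array. The code was tested on simulated data. The number of arrays limits the precision. Named genes were all members, the rod counterpart of each cascade gene, the called genes (up to 5 by size) of the phototransduction, further cone, regulator, dorsal and ventral lists, and *Thrb*, *Rxrg*, *Nr2e3* and *Crx*. Members and lists were chosen with earlier results of these data known. One planned comparison is not reported here, and the counts leave it out.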

Additional observations from a re-analysis of the deposited data

Results flagged for a closer look

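*Cnga3* in KO replicate 2 stood apart from its group. Its level was 0.3826, beside 0.2274 to 0.2349 in the other 3 KO arrays, so the gap took up 0.9518 of the range of the group; that is past the limit of Dixon's test at the 95% level for a group of 4. Among the 28 groups tested this was the only one, and chance gives about 1 in 20.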

How the results depend on the processing

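The count of called member probes was 3. It became 5 with quantile normalization, where *Gnat2* (0.30, limma adjusted p = 0.0124) and *Pde6c* (0.26, limma adjusted p = 0.0123) joined, 7 without the fold limit and 0 with a fold limit of 1.5. It was 2 to 3 when 1 array was left out. The *Arr3* calls were kept in all of these except the limit of 1.5. The *Opn1sw* call was lost with no dim-probe filter (limma adjusted p = 0.108) and with the methods' t-test after adjustment (Benjamini-Hochberg adjusted p = 0.0663). S-opsin minus M-opsin was 0.231 to 0.3607 when 1 array was left out, and 0.3368 with the mean of a gene's probes (exact permutation p = 0.0286). Opsins minus cascade was 0.03566 to 0.1323 when 1 array was left out, but -0.03513 with normexp and -0.08871 with the mean of a gene's probes; the cause was not tested. Centring each gene first, an alternative chosen after seeing the data, gave 0.1222. The number of separated cone and rod pairs was 7 of 8 in every setting run. Replicate numbers were shared by WT and KO, but the correlations of same-numbered arrays were 0.249, 0.0687, 0.037 and 0.112, so the numbers were not taken to pair the samples. With the replicate block the count of calls was 2, the *Opn1sw* adjusted p from limma was 0.0803, and S-opsin minus M-opsin was 0.2985 (exact permutation p = 0.125, the smallest that 4 pairs allow).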

Other observations

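Genes outside the members whose levels followed *Opn1sw* most closely over the 8 arrays were *Atrnl1* (Pearson r = 0.9818), *Emilin2* (0.9751), *Tkt* (0.9726), *Nol3* (0.966) and *Pls3* (0.9625), out of 14920 genes with 1 probe each. For *Arr3* they were *Atf3* (0.9922), *Specc1* (0.9912), *Ttc39a* (0.9911), *Ccl9* (0.9903) and *Faim2* (0.9897). The 8 points of each are shared arrays that fall into the 2 genotypes, so any gene that differs clearly between them scores high; the values are a description. KO replicate 2 was the highest KO array for 6 of the 14 member probes and KO replicate 1 the lowest for 7.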
